A study of Mus musculus with 10 samples.

Results

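The genes described here are the transcriptional output machinery of the Hippo pathway and its nearest regulators. They are the 4 DNA-binding factors Tead1, Tead2, Tead3 and Tead4, the coactivators Yap1 and Wwtr1 (the gene for TAZ), the TEAD cofactor Vgll4, the kinases Lats1 and Lats2, and the angiomotin Amotl2. They were chosen by their symbols, with earlier results of these data known, and are 10 of the 55487 genes that were counted. All 10 are also among the 15686 genes of the matrix of mean expression per stage that the authors deposited, and all 10 passed the filter on low counts that left 22596 genes to be tested.

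Nuclear RNA-seq was available for 5 stages of blood differentiation of the mouse embryonic stem (ES) cell line HM-1, with 2 libraries per stage and 10 in all. All of the stages come from this 1 line, and no engineered allele is named for these libraries in the labels. ES cells were grown with LIF, and HB cells were FLK1+ cells taken with magnetic beads from embryoid bodies made in serum over 3 d. HB cells were then grown with serum, VEGF, IL-6 and conditioned medium, and 3 populations were sorted from the same kind of culture, namely HE1 (KIT+ TIE2+ CD41-) and HE2 (KIT+ TIE2+ CD41+), which are both haemogenic endothelium, and HP (KIT+ TIE2- CD41+), which are blood progenitors. Levels are given as CPM, the read counts of a gene as a share of those of its library, after scaling of the libraries by the trimmed mean of M-values (TMM). A gene was called as changed in edgeR's quasi-likelihood test at a Benjamini-Hochberg adjusted p-value under 0.05 over all tested genes and a change of at least 2-fold. The study describes its replicates of this assay as biologically independent, which the labels do not state, and the p-values measure only the spread between these libraries.

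In the Hippo pathway, a kinase cascade ends with the LATS kinases, which phosphorylate YAP and TAZ and so keep them out of the nucleus. When the cascade is quiet, both coactivators enter the nucleus and bind TEAD factors, which hold the DNA. VGLL4 competes with YAP for the TEAD factors, and angiomotins hold YAP at cell junctions. YAP and TAZ are known for their part in the growth and remodelling of blood vessels, and their activity follows cell shape and tension. Lats2 and Amotl2 are also known targets of YAP and so act as feedback. RNA levels do not show whether the proteins were phosphorylated or where they were in the cell.

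The libraries held between 24920434 and 58782055 counts, and the counts of a member in a library ranged from 117 (Tead3 in HE2 replicate 2) to 16413 (Tead1 in ES replicate 1).

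The 300 bases around the annotated start of each gene (250 before and 50 after it) were read from RefSeq for 8 of the 10 genes, in 12 windows since some have several starts. They were searched on both strands for GGAATG, the core letters to which TEAD factors bind. Of these windows 8 held the core, and they belong to 6 genes, Tead3, Yap1, Wwtr1, Vgll4, Lats2 and Amotl2. The 2 windows of Wwtr1 overlap and hold the same core, so that it is counted in both. Over all 32851 windows of the same length 14.7% held it. No window of the members held TGANTCA, the core letters of the AP-1 factors, which were in 7.81% of all windows. Some of these stretches are printed because they show the letters that TEAD factors read beside the genes of their own coactivators and regulators, with Ccn1, a classical YAP target, for comparison. Ccn1 was taken as a target with the core, which 5 of the 14 windows for a list of 20 YAP targets held. All stretches are given 5′ to 3′ along the strand of the gene in mouse build GRCm38 (mm10), and capitals mark the core, written as CATTCC where it lies on the other strand.
Yap1, chr9:8004685-8004784, minus strand, upstream of the gene: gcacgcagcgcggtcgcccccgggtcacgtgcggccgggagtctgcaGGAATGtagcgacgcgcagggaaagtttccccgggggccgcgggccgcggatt
Wwtr1, chr3:57575994-57576093, minus strand, upstream of the gene: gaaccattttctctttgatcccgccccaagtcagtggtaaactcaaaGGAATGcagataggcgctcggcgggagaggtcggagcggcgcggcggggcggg
Vgll4, chr6:114969233-114969332, minus strand, inside the gene and outside its exons: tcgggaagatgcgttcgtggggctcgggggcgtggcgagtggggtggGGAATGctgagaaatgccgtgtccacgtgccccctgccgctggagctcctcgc
Amotl2, chr9:102717727-102717756, plus strand, in an untranslated part of an exon: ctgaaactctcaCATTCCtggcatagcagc
Lats2, chr14:57746102-57746131, minus strand, in an untranslated part of an exon: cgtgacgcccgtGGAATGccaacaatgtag
Ccn1, chr3:145650036-145650135, minus strand, upstream of the gene: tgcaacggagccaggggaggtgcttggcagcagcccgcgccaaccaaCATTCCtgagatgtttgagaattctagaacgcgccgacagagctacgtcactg
The core begins 141 bases before the start of Yap1 and 136 bases before the nearer of the starts of Wwtr1. It begins 103 bases before the start of Ccn1 and 4 bases after one of the starts of Lats2. It begins 82 bases before the RefSeq start used for Vgll4 and 65 bases before that used for Amotl2. Both of these starts lie inside the gene as annotated for the counts. In Tead2 and Lats1, the windows hold no such letters. A match of letters is a description and does not show that a factor was bound.

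Some libraries stand apart from the other library of their stage. HE1 replicate 2 carried RNA of ES cell markers, with a summed level of 67.0 CPM for Pou5f1, Nanog, Sox2, Zfp42 and Esrrb against 6.31 CPM in HE1 replicate 1. HE2 replicate 1 lay nearer to HE1 than HE2 replicate 2 did, with a summed level of 7 endothelial markers of 2708 CPM against 1595 CPM. The sorted populations also differed in markers of other cells. The endothelial sum was 4265 and 2516 CPM in HE1 and 772 and 840 CPM in HP, and all 7 endothelial markers were called as lower in HP than in HE1. Among them is Tek, the gene for TIE2. The sum of 7 blood markers was 411 and 216 CPM in HE1, 955 and 1295 CPM in HE2, and 1310 and 1097 CPM in HP. Among these are Kit and Itga2b, the gene for CD41. Tek, Kit and Itga2b encode antigens of the sort, so that the endothelial and blood sums are not independent of it. The sum of 7 mesenchymal markers, led by Acta2 and Col1a1, was 1023 and 1832 CPM in HE1, 1161 and 822 CPM in HE2, and 1496 and 760 CPM in HP, and was between 109 and 160 CPM in ES and HB. No defining marker of the mesenchymal cells was at 0 in the sorted stages. In such bulk samples fewer cells of a type and less RNA per cell cannot be told apart, and the part of these markers in the results was not tested.

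**Figure D1:**
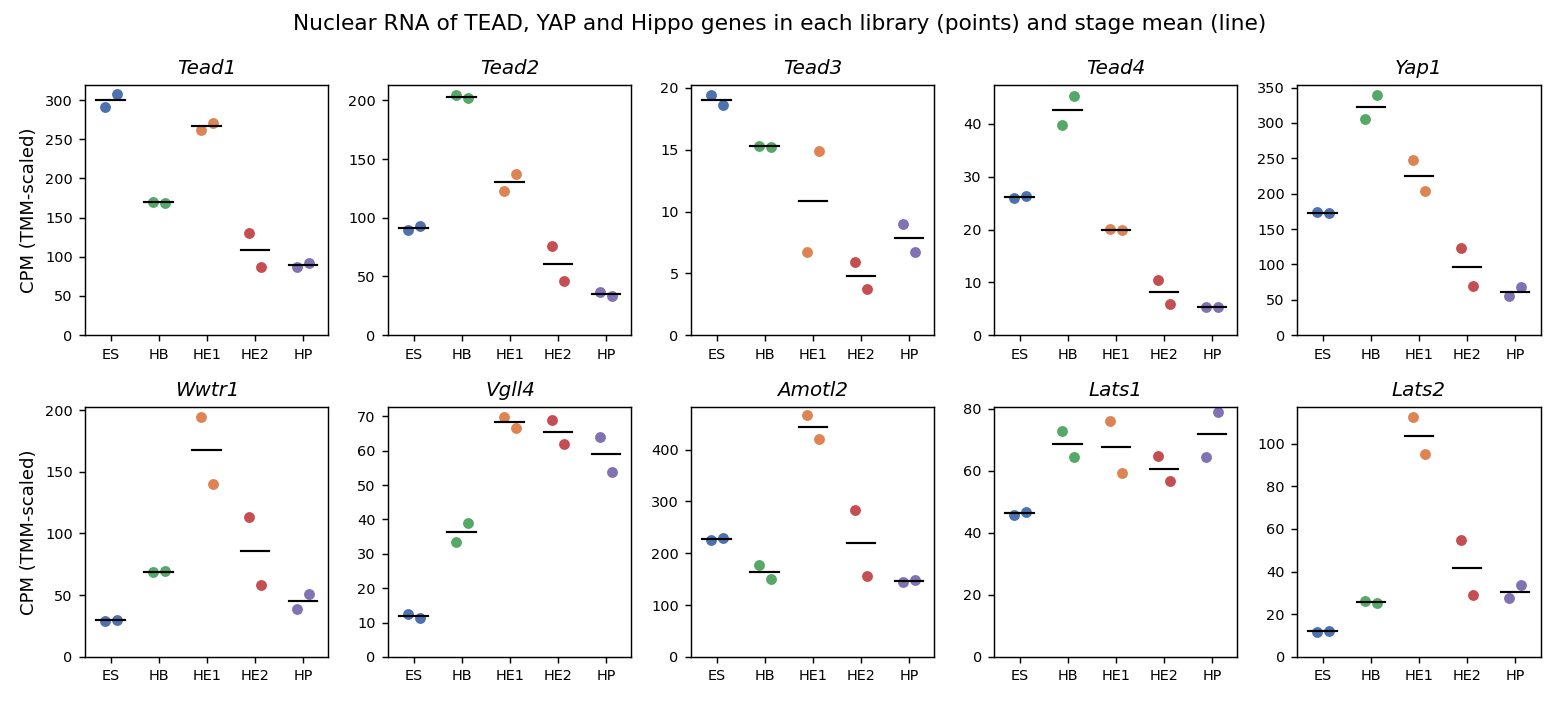
Level of each of the 10 genes in CPM (y axis, each panel with its own scale starting at 0) in the 5 stages (x axis), with a point for each library and a line at the mean of the stage. Yap1, Tead2 and Tead4 are highest in HB, Wwtr1, Amotl2 and Lats2 are highest in HE1, and the stage means of Vgll4 and Lats1 lie within 2-fold of each other from HE1 to HP.

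TEAD factors carry no activation domain of their own and rely on their cofactors. Tead1 had 291 and 308 CPM in the 2 libraries of ES cells. It stood at 170 and 169 CPM in HB, 262 and 271 CPM in HE1, 131 and 86.6 CPM in HE2, and 86.8 and 91.7 CPM in HP. ES cells and HE1 thus had the highest levels and HB lay between them and HE2, whose libraries overlapped with those of HP. Tead2 ran differently, with 89.1 and 92.6 CPM in ES cells and 205 and 202 CPM in HB. It was at 123 and 137 CPM in HE1, 75.8 and 45.9 CPM in HE2, and 36.3 and 33.7 CPM in HP. The stages of Tead2 did not overlap with each other in any case, and HB was the peak.

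Tead4, which is known for its part in the trophectoderm of the early embryo, had the same order of stages as Tead2 except that ES cells lay above HE1. It had 25.9 and 26.4 CPM in ES cells, 39.8 and 45.4 CPM in HB, 20.1 and 19.8 CPM in HE1, 10.4 and 5.94 CPM in HE2, and 5.29 and 5.31 CPM in HP. Tead3 was highest in ES cells, with 19.5 and 18.6 CPM, and had 15.3 and 15.2 CPM in HB and 5.88 and 3.71 CPM in HE2. In HE1 it was at 6.73 CPM in replicate 1 and at 14.9 CPM in replicate 2, the library with the ES cell markers, and in HP it was at 8.97 and 6.74 CPM. The libraries of HE1 and HP therefore overlapped for Tead3 and for no other TEAD gene.

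Levels of different genes can be compared once they are divided by the length of their exons. Per kb, the 4 TEAD genes together had 50.2 and 52.2 CPM in ES cells, 68.6 and 69.4 CPM in HB, 51.6 and 56.3 CPM in HE1, 29.3 and 18.2 CPM in HE2, and 16.8 and 16.3 CPM in HP. The sum per length was thus highest in HB and lowest in HP, with the libraries of HE2 apart from each other. Without division by length, the summed stage means of ES, HB and HE1 lay close together and that of HB was not the highest, while HP was still lowest. Tead1 made up 43.2% ± 0.552 (SD, n = 2) of this level in ES cells and 18.1% ± 0.222 in HB, and 36.4% ± 1.38 in HE1. Tead2 made up 37.1% ± 0.0268 in ES cells, 61.4% ± 1.16 in HB and 50.3% ± 0.701 in HE1. Tead3 had the lowest level per length in each stage. In HP this depends on the length used. With the longest annotated transcript in place of all exons, Tead4 was lower there, at 1.72 against 2.28 CPM per kb for Tead3. Without division by length Tead4 was also lower in HP, at 5.30 against 7.85 CPM. In HP, the shares were 39.8% ± 2.42 for Tead1, 44.2% ± 1.37 for Tead2, 7.06% ± 1.26 for Tead3 and 8.91% ± 0.215 for Tead4. In HE2 Tead2 made up 53.4% ± 0.955 and Tead1 34.1% ± 1.5. Tead2 therefore led in HB, HE1 and HE2, whereas the TEAD RNA of HP was divided nearly evenly between Tead1 and Tead2 at a level that was lower for both. Without division by length, Tead1 had the larger share in ES, HE1, HE2 and HP, with 65.0% in HP.

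**Figure D2:**
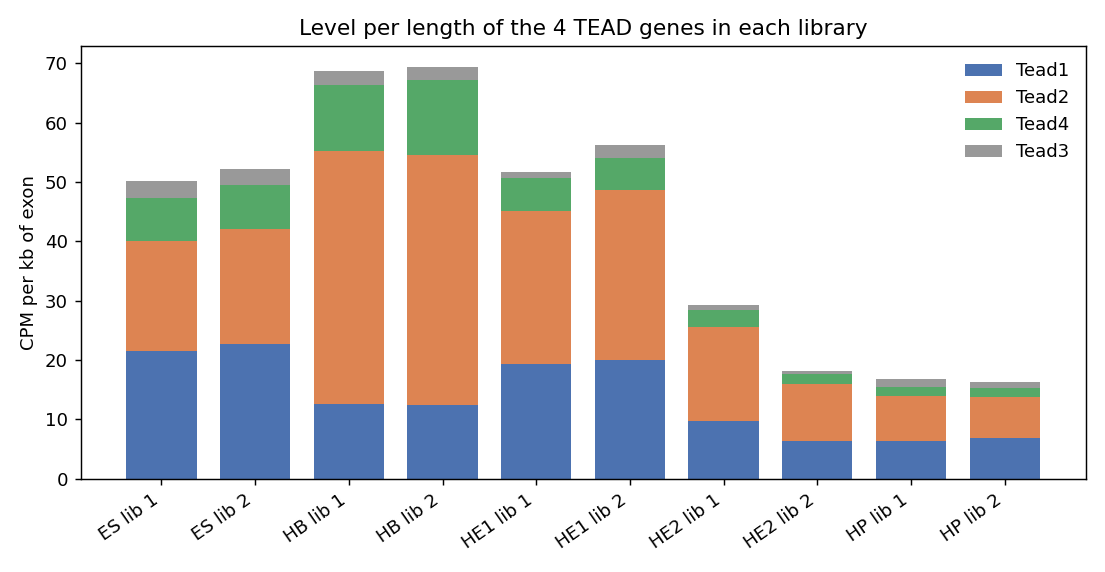
Level of the 4 TEAD genes in CPM per kb of exon (y axis, starting at 0), stacked for each of the 10 libraries (x axis). The summed level is between 68.6 and 69.4 in HB and between 16.3 and 16.8 in HP, and Tead2 forms the largest part in HB.

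YAP and TAZ are related coactivators that bind the same TEAD factors. Yap1 had 174 and 172 CPM in ES cells, 306 and 340 CPM in HB, 247 and 204 CPM in HE1, 123 and 69.9 CPM in HE2, and 54.8 and 68.2 CPM in HP. HB was the peak, and the libraries of neighbouring stages in this order did not overlap. Wwtr1 was low in ES cells, with 29.3 and 29.7 CPM, and had 69.0 and 69.3 CPM in HB. It reached 195 and 140 CPM in HE1 and then had 114 and 58.4 CPM in HE2 and 38.9 and 50.9 CPM in HP. Wwtr1 thus peaked 1 stage later than Yap1, and its level in HP was still above that in ES cells in both libraries.

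The balance of the coactivators differed between stages. Per length of exon, the ratio of Yap1 to Wwtr1 was 3.03 ± 0.0531 (SD, n = 2) in ES cells and 2.41 ± 0.170 in HB. In HE1 it was 0.703 ± 0.0653, in HE2 0.589 ± 0.0413 and in HP 0.709 ± 0.0249. The ratio was lower in both HE1 libraries than in both HB libraries, and its stage means from HE1 to HP lay between 0.589 and 0.709, while both genes fell from HE1 to HP. The side of 1 on which the ratio lies depends on the length that is used. With the longest annotated transcript in place of all exons, an alternative chosen after seeing the data, the ratio was 1.21 in HE1, 1.01 in HE2 and 1.22 in HP, and 5.22 in ES cells. The choice of length scales the ratio alike in every stage, so that it cannot change the order of HE1 and HB.

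Vgll4 rose early in the series. It had 12.4 and 11.4 CPM in ES cells, 33.6 and 39.0 CPM in HB, 69.9 and 66.8 CPM in HE1, 68.9 and 62.1 CPM in HE2, and 64.0 and 54.0 CPM in HP. The libraries of HE1, HE2 and HP lie between 54.0 and 69.9 CPM, and those of HE1 and HP did not overlap. Per kb, Vgll4 was at 2.2 CPM in ES cells against 18.7 CPM for Yap1 and 6.17 CPM for Wwtr1, and at 10.9 CPM in HP against 6.64 CPM for Yap1 and 9.40 CPM for Wwtr1. The level per length of Vgll4 was thus below those of both coactivators in ES cells and above both in HP, although the spread of Wwtr1 (SD 1.8) and of Vgll4 (SD 1.3) in HP covers the difference between them. Without division by length, Vgll4 in HP lay between the coactivators, with 59.0 CPM against 61.5 CPM for Yap1 and 44.9 CPM for Wwtr1. With the longest annotated transcript it was at 26.8 CPM per kb against 11.6 and 9.56 CPM per kb.

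The kinases that phosphorylate YAP and TAZ went separate ways. Lats1 was at 45.7 and 46.9 CPM in ES cells, 73.0 and 64.6 CPM in HB, 76.0 and 59.2 CPM in HE1, 65.0 and 56.6 CPM in HE2, and 64.6 and 79.1 CPM in HP, so that the later stages overlapped with each other. Lats2 had 11.8 and 12.1 CPM in ES cells, 26.1 and 25.2 CPM in HB, 112 and 95.1 CPM in HE1, 54.6 and 29.0 CPM in HE2, and 27.6 and 33.5 CPM in HP. Its level was thus highest in HE1, and the libraries of HE2 and HP overlapped. The ratio of Lats2 to Lats1 per length was 0.271 in ES cells, 0.391 in HB, 1.61 in HE1, 0.708 ± 0.243 (SD, n = 2) in HE2 and 0.446 in HP, so that Lats2 had the higher level in HE1. Of the exons of Lats2, 42.39% overlap with Gm49361 on the same strand, and a read pair on both was counted for both, so that the level of Lats2 may include RNA of that gene. Over all libraries Gm49361 had 13495 counts and Lats2 13291, and how many of them are shared was not tested, so that each difference given for Lats2 is uncertain in this way.

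Amotl2 had the highest level per length of the members in HE1, with 70.5 CPM per kb. Its libraries were at 225 and 230 CPM in ES cells, 177 and 151 CPM in HB, 467 and 420 CPM in HE1, 283 and 155 CPM in HE2, and 145 and 149 CPM in HP. The 2 libraries of HE2 enclosed the level of ES cells, and HP was below HE1 by both libraries.

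**Figure D3:**
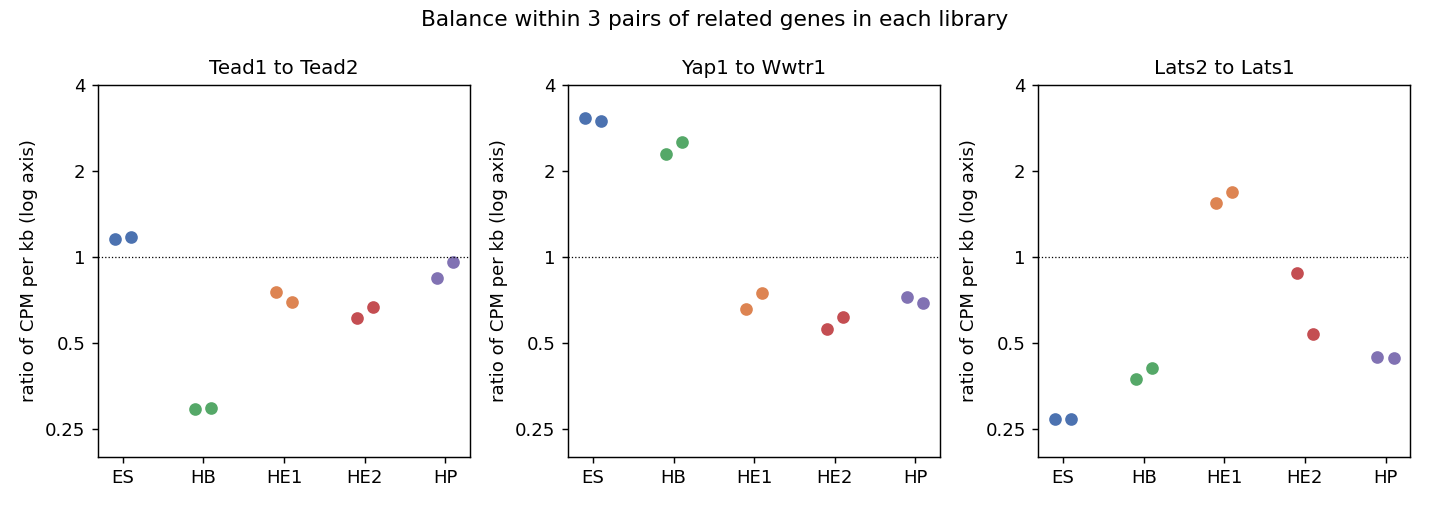
Ratio of the levels per kb of exon (y axis, log scale) of Tead1 to Tead2, Yap1 to Wwtr1 and Lats2 to Lats1 in each library (points) of the 5 stages (x axis), with a dotted line at 1. Tead1 to Tead2 is lowest in HB at 0.293 and 0.296, Yap1 to Wwtr1 drops between HB and HE1, and Lats2 to Lats1 is above 1 in both libraries of HE1.

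The comparison of HB with ES cells asks what changes as pluripotent cells become mesoderm that can form blood and endothelium. Of the 10 genes, 4 were called as higher in HB and 0 as lower, where 11.5% of all tested genes were called as higher and 17.3% as lower. Vgll4 rose by 1.61 on the log2 scale (SE 0.155, adjusted p = 2.66e-05), Wwtr1 by 1.23 (SE 0.279, adjusted p = 0.00534), Tead2 by 1.16 (SE 0.203, adjusted p = 0.00118) and Lats2 by 1.10 (SE 0.255, adjusted p = 0.00600). Yap1 passed the p-value with a log2 difference of 0.90, Tead4 with 0.70 and Lats1 with 0.57, all under 2-fold. Tead1 differed in the other direction, by -0.82 (adjusted p = 0.00455), which is also under 2-fold. The median log2 difference over the members was 0.80, and it was 0.00 over all tested genes.

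The step from HB to HE1 is the formation of haemogenic endothelium, from which blood cells later emerge. In it 3 of the 10 genes were called as higher and 1 as lower, with 12.7% and 8.19% of all tested genes called in these directions. Lats2 rose by 2.02 (SE 0.258, adjusted p = 0.000325), Amotl2 by 1.44 (SE 0.238, adjusted p = 0.00149) and Wwtr1 by 1.27 (SE 0.278, adjusted p = 0.00658), all on the log2 scale. Tead4 fell by 1.09 (SE 0.232, adjusted p = 0.00568). Without HE1 replicate 1 or without HB replicate 2, Wwtr1 was not called, and without HE1 replicate 2 Tead3 was called as lower as well. The RNA of Lats2, Amotl2 and Wwtr1 thus rose at this step, while Yap1 had a log2 difference of -0.52 (adjusted p = 0.117). For Vgll4 the log2 difference was 0.91, for Tead1 0.65 and for Tead2 -0.64, each with an adjusted p under 0.05 and under 2-fold.

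HE2 cells differ from HE1 by having gained CD41 while keeping TIE2. Of the members 6 were called as lower in HE2 than in HE1 and 0 as higher, against 5.39% and 3.26% of all tested genes. They are Tead1 (log2 difference -1.29, adjusted p = 0.00320), Tead2 (-1.09, adjusted p = 0.0118), Tead4 (-1.29, adjusted p = 0.0116), Yap1 (-1.22, adjusted p = 0.0145), Lats2 (-1.31, adjusted p = 0.0132) and Amotl2 (-1.01, adjusted p = 0.0249). Wwtr1 was just short of 2-fold, with -0.96 and an adjusted p of 0.0466. This count rests on HE2 replicate 2, since only Tead1 was called without it, while 8 genes were called without HE2 replicate 1. The calls over all genes moved likewise, as 98 of 24420 genes (0.401%) were called as lower without HE2 replicate 2 and 2118 of 24418 (8.67%) without HE2 replicate 1. The call of Amotl2, close to 2-fold, was lost in 11 of 17 alternatives. With only the 4 libraries of these stages in the model, Tead1 and Lats2 were called, beside 0.903% of all tested genes, and with HE1 replicate 2 left out Tead1, Tead4, Yap1 and Lats2 were, beside 1.1%.

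Between HE2 and HP, where TIE2 is lost, edgeR called none of the members and none of the 22596 tested genes (0.0%). At an unadjusted p under 0.05, 670 of all genes were higher and 1113 lower in HP, with 0 and 5 of the members. These are Tead2 (log2 difference -0.80), Wwtr1 (-0.94), Yap1 (-0.65), Tead4 (-0.63) and Amotl2 (-0.58). limma-voom called 62 of all genes (0.274%) and DESeq2 108 as higher and 193 as lower, and none of them is a member. Without HE2 replicate 2, the library in which the members were lowest among the HE2 libraries, Tead2 (-1.11), Wwtr1 (-1.34) and Yap1 (-1.0) were called as lower in HP, as were 475 of all 24420 genes tested in that fit (1.95%).

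Over the whole transition from HE1 to HP, 7 of the 10 genes were called as lower and 0 as higher, where 11.2% and 5.35% of all tested genes were called. The TEAD genes Tead1, Tead2 and Tead4 fell by 1.58 (SE 0.185, adjusted p = 0.000419), 1.89 (SE 0.208, adjusted p = 0.000292) and 1.91 (SE 0.242, adjusted p = 0.000624) on the log2 scale. Of the coactivators, Yap1 fell by 1.87 (SE 0.244, adjusted p = 0.000700) and Wwtr1 fell by 1.90 (SE 0.283, adjusted p = 0.00126). Lats2 fell by 1.76 (SE 0.255, adjusted p = 0.00109) and Amotl2 by 1.59 (SE 0.239, adjusted p = 0.00130). The median over the members was -1.68 and over all tested genes -0.02. In 8 of the genes both libraries of HP lay below both of HE1, which 28.3% of all tested genes did.

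The genes that were not called are Tead3, with a log2 difference of -0.46 (95% interval -1.24 to 0.31), Vgll4 with -0.21 (-0.54 to 0.12) and Lats1 with 0.09 (-0.28 to 0.46). For Vgll4 and Lats1 these intervals lie within 2-fold on either side, whereas the interval of Tead3 does not. The same 7 genes were called with any 1 of the 10 libraries left out, while between 4.66% (without HP replicate 1) and 15.1% (without HE1 replicate 1) of all tested genes were called as lower in these fits.

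The 7 called genes fell and were not absent in HP. HP cells had 26.9% of the HE1 level of Tead2, 26.6% of Tead4, 27.3% of Yap1, 26.8% of Wwtr1, 29.5% of Lats2, 33.1% of Amotl2 and 33.5% of Tead1. In both HP libraries 8 of the 10 genes were above 9 CPM, the level under which the study took a gene as not expressed, and Tead3 and Tead4 were under it. Their counts in HP were 393 and 212 for Tead3 and 232 and 167 for Tead4, over the floor of 3 counts.

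**Figure D4:**
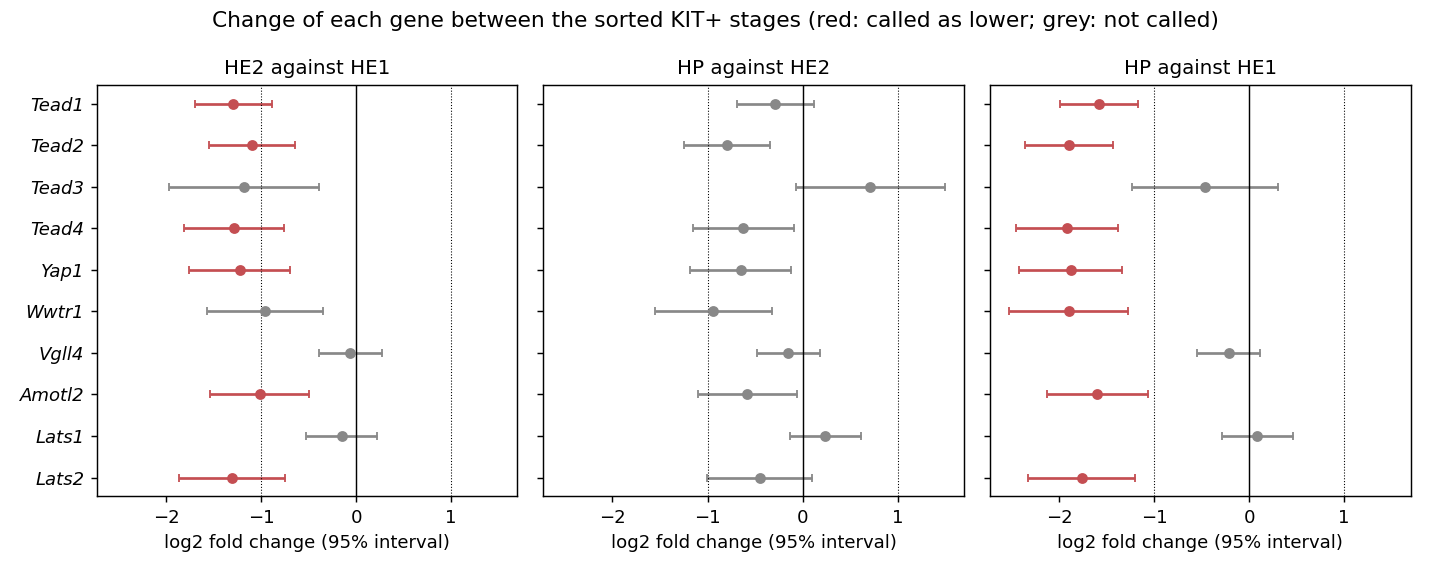
Log2 fold change (x axis) with its 95% interval for each gene (y axis) in HE2 against HE1, HP against HE2 and HP against HE1, with dotted lines at 2-fold. Red points are genes called as lower, and grey points were not called. The 7 genes called in HP against HE1 lie between -1.58 and -1.91, and no point is red in HP against HE2.

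The comparison of HP with ES cells sets both ends of the series against each other. In it 2 of the 10 genes were called as higher in HP and 5 as lower, with 16.7% and 21.9% of all tested genes called in these directions. Vgll4 was higher by 2.31 on the log2 scale (SE 0.158, adjusted p = 1.64e-06) and Lats2 by 1.35 (SE 0.256, adjusted p = 0.00131). Tead1 (-1.75), Tead2 (-1.38), Tead3 (-1.27), Tead4 (-2.30) and Yap1 (-1.49) were lower. The call of Tead3 was lost without HP replicate 2 (-1.08, adjusted p = 0.0716). Lats1 (0.63, adjusted p = 0.00917) and Amotl2 (-0.63, adjusted p = 0.0433) passed the p-value under 2-fold, and for Wwtr1 the difference was 0.61 with an adjusted p of 0.0915.

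The remaining pathway was followed with 23 genes upstream of or beside LATS, of which 22 could be tested. In HP against HE1 7 of them were called as lower and 0 as higher, beside 11.2% and 5.35% of all tested genes, and the median log2 difference was -0.27. Fat4 and Dchs1, atypical cadherins that bind each other across cells, fell by 3.12 (SE 0.537, adjusted p = 0.00261) and 2.99 (SE 0.414, adjusted p = 0.000921). Fat4 was at 215 and 101 CPM in HE1 and at 11.3 and 25.1 CPM in HP, and Dchs1 at 47.9 and 30.8 CPM against 3.88 and 6.04 CPM. The angiomotin Amotl1 fell by 2.92 (adjusted p = 0.000910), from 259 and 217 CPM to 27.4 and 35.7 CPM. Ajuba, a LIM protein that restrains LATS, fell by 1.44, the kinase Map4k4, which can phosphorylate LATS, by 1.29, the FERM protein Frmd6 by 1.14 and the LIM protein Wtip by 1.07. Wtip fell short of 2-fold without HE1 replicate 2 and without HP replicate 2.

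Of the cascade genes upstream of the LATS kinases, the MST kinases, their scaffold and the MOB proteins were not called in HP against HE1. The MST kinase genes Stk3 and Stk4 had log2 differences of 0.05 and 0.76 (adjusted p = 0.00837 for Stk4), and the LATS activators Mob1a and Mob1b 0.52 each (adjusted p = 0.0161 for Mob1b). The scaffold gene Sav1 was at -0.58 and Nf2, the gene for Merlin, at 0.15.

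Earlier in the series, 7 of the 22 genes were called as higher and 3 as lower in HB against ES cells, beside 11.5% and 17.3% of all tested genes. The share of lower genes is thus no larger than that over all genes. Amot, the founding angiomotin, had one of the largest differences, with 44.3 and 44.0 CPM in ES cells and 1630 and 2075 CPM in HB (log2 difference 5.39, SE 0.303, adjusted p = 1.06e-06). In HE1 it was at 313 and 194 CPM, above ES cells and below HB (-2.87 against HB, adjusted p = 5.42e-05), while its relatives Amotl1 and Amotl2 had their highest level there. Fat4 rose by 5.97, from 0.71 and 0.43 CPM in ES cells to 40.3 and 34.4 CPM in HB, and Dchs1 rose by 3.17. Vgll3, a TEAD cofactor, fell by 3.52 in HB and rose by 4.8 in HE1, being at 12.4 and 12.8 CPM in ES cells, 1.22 and 0.99 CPM in HB, and 19.6 and 41.9 CPM in HE1. Wwc1, the gene for KIBRA, fell by 1.88 and Ajuba by 1.49 in HB. In HE1 against HB 4 of these genes were called as higher and 1 as lower (2 without HE1 replicate 2), which is near the 12.7% and 8.19% of all tested genes. The other called genes were Fat4 (2.08), Wwc2 (1.17) and Vgll2, which was at 1.60 and 1.55 CPM in HE1 and at or below the floor in HB. The call of Fat4 at this step was lost without either HB library and without HE1 replicate 1 (adjusted p up to 0.0912).

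The output of the pathway was followed with 20 genes that are known as YAP targets in other cells. From ES cells to HB 6 were called as higher and 10 as lower, beside 11.5% and 17.3% of all tested genes, although Yap1 was higher in HB than in ES cells in both libraries. F3, the gene for tissue factor, fell by 2.69 (adjusted p = 0.000111), Ccn2, a secreted matricellular protein, by 2.43 (adjusted p = 0.00190) and Myof, a membrane protein, by 2.41 (adjusted p = 0.000524). Rbms3 (4.66, adjusted p = 2.33e-05) and Tgfb2, a growth factor (1.46, adjusted p = 0.00235), rose, and Foxf2 was called as higher at under 1 CPM, a call that was lost without ES replicate 2 and without HB replicate 1 (adjusted p up to 0.163). The median of the list was -1.02, and so opposite in sign to that of the 10 members.

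In HE1 against HB 14 of the 20 targets were called as higher and 0 as lower, beside 12.7% and 8.19% of all tested genes, with a median of 1.53, where that of all tested genes was 0.04. The largest differences were those of Ankrd1 (6.72, adjusted p = 5.11e-06), Ccdc80 (4.43, adjusted p = 3.58e-05) and the receptor kinase gene Axl (3.65, adjusted p = 0.000114). Ankrd1 was at 0.79 and 0.76 CPM in HB and at 65.7 and 98.6 CPM in HE1. Among the classical targets, Ccn1 had 79.9 and 52.8 CPM in HB and 263 and 268 CPM in HE1 (log2 difference 2.00, SE 0.284, adjusted p = 0.000600), and Ccn2 had 26.4 and 19.2 CPM in HB and 184 and 242 CPM in HE1 (3.22, SE 0.476, adjusted p = 0.000771). This was the step at which Wwtr1 rose and Yap1 did not. The sums of the mesenchymal, endothelial and blood markers were also higher in HE1 than in HB. That of the endothelial markers was 1203 and 1501 CPM in HB and 4265 and 2516 CPM in HE1. The part of cell types in the rise of the targets was not tested.

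In HP against HE1 13 of the 20 targets were called as lower and 1 as higher, beside 11.2% and 5.35% of all tested genes, with a median of -1.24. Ccdc80 fell by 2.31 (adjusted p = 0.00130), Ccn2 by 2.17 (adjusted p = 0.00708), Myof by 1.79 (adjusted p = 0.00585), Igfbp3, a binding protein of insulin-like growth factors, by 1.64 (adjusted p = 0.00257), Rbms3 by 1.58 (adjusted p = 0.00950) and Arhgef17 by 1.45 (adjusted p = 0.000768). The call of Myof was lost without HP replicate 1, and that of Rbms3 without HE1 replicate 2 and without HP replicate 2. In single libraries, Ccn2 was at 55.6 and 39.0 CPM in HP and Ccn1 at 110 and 90.1 CPM (-1.40 against HE1, adjusted p = 0.00538). The 1 gene called as higher, a share near that over all genes, is Nt5e, an ectoenzyme that makes adenosine, with 3.20 and 1.75 CPM in HE1 and 7.35 and 11.8 CPM in HP (1.96, SE 0.560, adjusted p = 0.0285). That call was lost without HE1 replicate 2 and without either HP library. Without HE1 replicate 2 the targets called as lower were 8, beside 6.86% of all tested genes. In HE2 against HE1 10 targets were already called as lower and 0 as higher, beside 5.39% and 3.26% of all tested genes. The count of lower targets was 1 without HE1 replicate 2, 0 without HE2 replicate 2 and 3 with only the 4 libraries of these stages. Of all tested genes 1.1%, 0.401% and 0.903% were called as lower in these fits, so that calls over all genes were fewer as well.

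Some targets were above their level in HB in both HP libraries. Ankrd1 was at 43.0 and 28.0 CPM in HP against 0.79 and 0.76 CPM in HB, and Axl at 39.2 and 39.3 CPM against 5.62 and 6.23 CPM. Acta2, a mesenchymal marker, was at 529 and 249 CPM in the same HP libraries and at 2.25 and 2.06 CPM in HB. The part of other cells in the targets of HP was not tested.

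**Figure D5:**
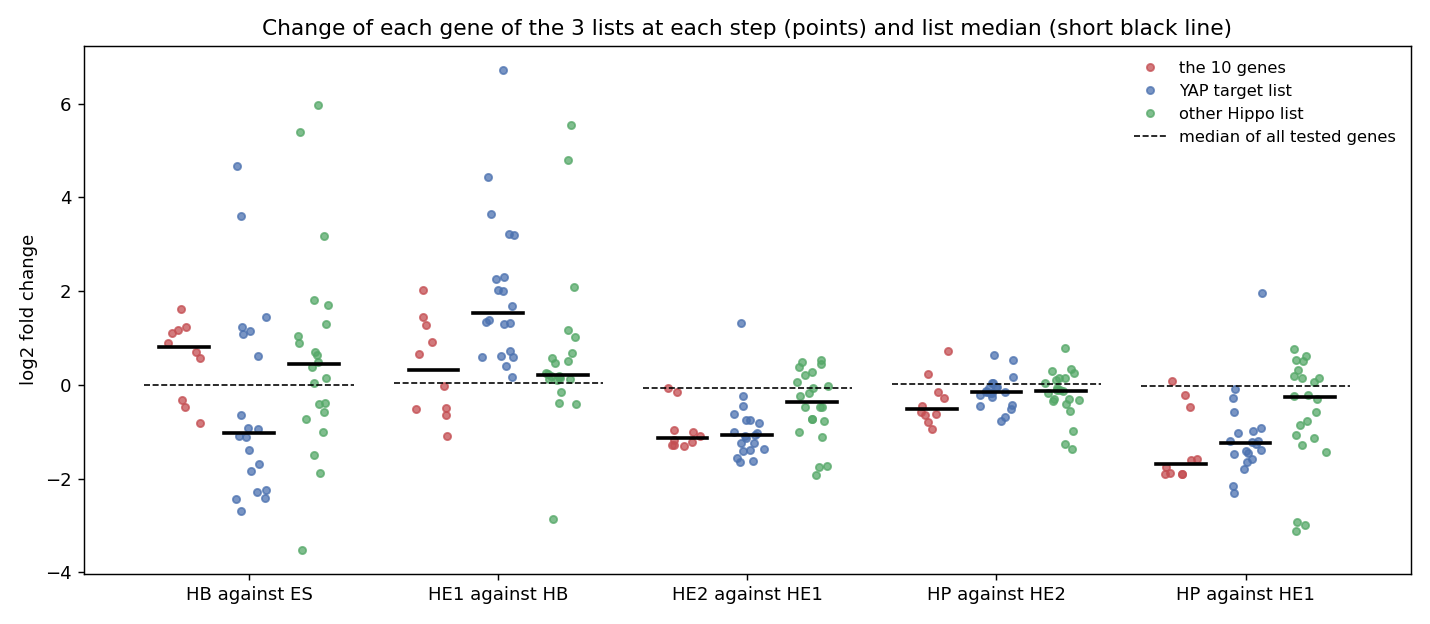
Log2 fold change (y axis) of every tested gene of the 10 members, the 20 YAP targets and the 22 other Hippo genes (points) in each comparison (x axis), with the median of each list as a short black line and that of all tested genes as a dashed line. The medians of members and targets lie apart in HB against ES (0.80 and -1.02), are both above 0 in HE1 against HB, and are both below -1 in HE2 against HE1 and HP against HE1.

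The members fall into groups by how their levels ran over the 10 libraries, which share 5 stages and so are described without a test. Pearson's r of log2 CPM was 0.98 between Tead2 and Yap1, 0.96 between Yap1 and Tead4, and 0.94 between Tead2 and Tead4. It was 0.67 between Tead1 and Tead2, and 0.38 between Tead2 and Wwtr1. Wwtr1 ran with Lats2 at 0.95 and with Vgll4 at 0.71, and r was 0.82 between Vgll4 and Lats2. Among the 12235 genes with a mean of at least 9 CPM in some stage, the gene most like Tead1 was Osbpl10 (r = 0.990), followed by Myo1e, Plcd3, Gpr137b and Pdk4. The most like Tead2 was Pknox2 (r = 0.992), then Ncam1, Galnt11, Shc2 and Tulp3. For Yap1 it was Hdgfl3 (r = 0.989), then Shc2, Ncam1, Septin10 and Arhgef11, so that Shc2 and Ncam1 were shared with Tead2. For Wwtr1 it was Acvrl1 (r = 0.995), followed by Fbxl7, Bmpr2, Srgap1 and Nhsl2. The mean level of Acvrl1 was 3.01 CPM in ES cells and 22.0 CPM in HB, reached 128 CPM in HE1, and was 46.6 CPM in HE2 and 9.79 CPM in HP.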

How the data were processed

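Nuclear RNA was depleted of rRNA and sequenced as stranded libraries. The authors removed rRNA reads, trimmed the rest (Trimmomatic), mapped these on mm10 (HISAT2, v2.2.1) and deposited raw counts per gene from featureCounts (v2.0.1, Ensembl 102), in which read pairs were counted on exons by strand and, where genes overlap, on each gene. The deposited matrix of scores holds the authors' mean CPM per stage and was used to define a set of genes. Its values for the members were also set beside the mean levels, as an alternative that is not described here. No level given here comes from it. Samples were grouped by their labels. Counts were filtered by filterByExpr, scaled by TMM and fitted with edgeR (v4.0.16, R v4.3.3) over all 10 libraries with stage as the only term. TMM factors were 0.954 to 1.13. The precision of 2 libraries per stage is limited, and the floor of 3 counts is 0.0510 to 0.120 CPM and covers counting error only. On data simulated for HP against HE1 (21314 genes, of which 200 carried a log2 change of 2), the share found by edgeR was 96.5% with 8 false calls. The simulation gave every gene the same relative spread in all stages, and no member changed by as much in HP against HE1. These figures therefore do not give the error of the calls reported here. Each list of Hippo genes and YAP targets was written by hand, and the members and lists were chosen with earlier results of these data known. Genes of these lists were named by largest change among the called genes, up to 6 per direction in HP against HE1 and up to 3 in HB against ES and HE1 against HB, and genes like a member by Pearson's r. Other genes of the lists, such as Ccn1, Stk4, Mob1b, Sav1 and Nf2, were named after their values were seen. Members share at most 0.548% of their 50-base stretches with other genes, except for Lats2 (41.2%, with Gm49361). Exon lengths came from the count files, and promoters from RefSeq (GRCm38.p6). The alternatives were limma-voom (v3.58.1), DESeq2 (v1.42.0), total counts, no filter, only the genes of the matrix, only the 4 libraries compared, a replicate term, other fold thresholds, leaving out each library, and for levels per length the longest transcript (GENCODE M21) or no length.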

Additional observations from a re-analysis of the deposited data

How the results depend on the processing

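The members called as lower in HP than in HE1 were 7 under limma-voom, DESeq2, total counts, no filter, only the genes of the matrix, only the 4 libraries and the replicate block, and without any 1 library, beside 4.66% to 15.1% of all tested genes. At 4-fold the counts of members were 0 higher in HB against ES, 1 higher and 0 lower in HE1 against HB, 0 lower in HE2 against HE1, 0 lower in HP against HE1, and 1 higher and 1 lower in HP against ES, with 2 lower for the YAP targets and 3 lower for the other Hippo genes in HP against HE1 and 0 targets higher. Of all tested genes, 4-fold calls were 6.17% (higher) in HB against ES, 7.71% and 3.77% (higher and lower) in HE1 against HB, 2.34% (lower) in HE2 against HE1, 2.97% and 6.26% in HP against HE1, and 9.55% and 15.8% in HP against ES. With the adjusted p alone they were 7 higher and 1 lower in HB against ES, 5 higher and 2 lower in HE1 against HB, and 2 higher for the other Hippo genes in HP against HE1, beside 17.8% and 22.6%, 17.5% and 14.8%, and, as higher in the last, 2495 of all 22596 tested genes. With only the 4 libraries, 2 members were lower in HE2 against HE1.

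Leaving out each library in turn, where the lone library of a stage is assumed to vary like those of other stages, gave 2 to 3 members higher and 1 to 2 lower in HE1 against HB, 4 to 5 lower in HP against ES, 1 to 8 lower in HE2 against HE1, 0 to 3 lower in HP against HE2, 0 to 1 targets higher and 8 to 15 lower in HP against HE1. Of all tested genes, these fits called 6.03% to 13.9% as higher and 5.48% to 8.93% as lower in HE1 against HB, and as lower 17.2% to 23.0% in HP against ES, 98 of 24420 to 2927 of 24371 genes in HE2 against HE1, 0.0% to 1.95% in HP against HE2 and 4.66% to 15.1% in HP against HE1, where 3.16% to 7.29% were higher. In these fits the sign turned for small differences that are not called, namely Tead1 (-0.55 to 0.042, above 0 without HE2 replicate 1) and Lats2 (-0.83 to 0.073, likewise) in HP against HE2, Tead3 in HP against HE1 (-0.89 to 0.22, above 0 without HE1 replicate 2), Lats1 in HP against HE1 (-0.082 to 0.31, below 0 without HE1 replicate 2 and, at -0.05, without HP replicate 2) and in HE1 against HB (-0.26 to 0.15, above 0 without HE1 replicate 2), and, in HE2 against HE1, Lats1 (-0.32 to 0.062, above 0 without HE1 replicate 1), together with Vgll4 (-0.12 to 0.027, above 0 without HE2 replicate 2). Lats1 in HE1 against HB was 0.0044 with only the genes of the matrix. The cause was not tested.

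Replicate numbers did not pair the samples alike over the stages, as deviations from the stage means correlated between -0.316 and 0.213 over pairs of stages. The correlation was 0.213 for HB with HE2 and 0.133 for HE1 with HP. It was between -0.316 and -0.179 for the other pairs among HB, HE1, HE2 and HP. Whether libraries with different replicate numbers belong together was not tested, and the replicate block does not cover it. With the replicate block the counts of members were 6 lower in HE2 against HE1 and 7 lower in HP against HE1, as without it. Over all genes, the calls in HE2 against HE1 were 737 higher and 1217 lower, and 651 and 766 with the block, 364 and 171 with only the 4 libraries, and 324 and 98 without HE2 replicate 2. Those in HP against HE2 were 0 and 0 by edgeR, 35 and 27 by limma-voom, 108 and 193 by DESeq2, 145 and 389 with no filter, and 50 and 475 without HE2 replicate 2.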
